A study of Rattus norvegicus with 6 samples.

Results

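The genes described here are 34 organic ion and drug transporters of the rat renal cortex, chosen by name and measured as array probes whose RefSeq accession maps to one of the 34 symbols. They make up 34 of the 45433 genes on the array, where each probe identifier without a RefSeq match is counted as a gene. By transport direction they are 18 uptake carriers (11 of the Slc22 family and 7 of the Slco family), 12 efflux pumps (10 Abc pumps and the 2 Slc47 extruders) and 4 peptide or nucleoside carriers (Slc15 and Slc29). The study compared the renal cortex of male Sprague-Dawley rats, stock Crl:CD(SD), bought at 5 weeks of age. One group of 3 received phenylbutazone at 200 mg/kg/day for 4 weeks, and the other group of 3 received corn oil, the vehicle, for the same time. The submitters describe the 3 samples of a group as biological replicates, and RNA of each was hybridised to 1 one-colour Agilent array, 6 arrays in all. The labels name no allele or transgene, and the age at tissue collection was not given in the sources used here.

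Phenylbutazone is a non-steroidal anti-inflammatory drug that blocks the cyclooxygenases, and it is an organic acid that circulates bound to albumin. The proximal tubule secretes such acids, and many drugs, in a pair of steps. Uptake carriers of the Slc22 and Slco families in the basolateral membrane bring organic anions and cations in from the blood, with anion entry tied through dicarboxylate exchange to the sodium gradient. Efflux pumps of the Abc family, which spend ATP, and the Slc47 proton exchangers then pass them to the urine across the brush border, while some Abcc pumps and several Slc22 exchangers return solutes to the blood or reclaim them from the filtrate.

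Levels are given as log2 of the processed spot intensity minus the log2 of that array's 75th percentile, so that 0 is the 75th percentile of the array. Levels of different probes cannot be set against each other. The 75th percentile intensity was 891 to 1003 over the 6 arrays, between 65.2% and 68.4% of probes were well above background, and no spot was saturated. Vehicle arrays 1 and 2 lay on slide 1, and vehicle array 3 lay with all 3 phenylbutazone arrays on slide 2. The scan day divided the arrays in the same way, so the slide is partly confounded with the treatment. Values within slide 2 are given beside the results of the tested transporters and of several other named genes. Tissue identity was checked on markers: all 24 proximal tubule markers and all 6 podocyte markers could be tested, and the summed level of the proximal tubule markers was 3212 to 3324 times the array's 75th percentile on vehicle arrays and 3095 to 3524 times on phenylbutazone arrays. RNA was measured in whole tissue, so fewer cells of a type and less RNA per cell cannot be told apart in any value below.

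Of the 34 transporters, 32 stood well above background on 3 or more arrays and were tested. The exceptions were both efflux pumps. Abcb1a, one of the paired rodent P-glycoprotein genes, stood well above background on none of the arrays, and Slc47a2, a proton-coupled cation extruder, did so on 1 vehicle array only. No transporter passed the threshold of the test, an adjusted p of 0.05 over all 29938 genes tested (limma, Benjamini-Hochberg), and neither did any other gene (0%), while 3657 genes had an unadjusted p under 0.05. The transporter nearest to the threshold was Abcc4, an efflux pump of the brush border, whose RNA level was 1.96-fold higher with phenylbutazone. Every statement of higher or lower that follows is therefore a description of the 6 arrays rather than a call.

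Among the 32 tested transporters the level was higher with phenylbutazone in 20 and lower in 12, against 52.8% of all genes tested that were higher. The median log2 difference was 0.13 for the transporters and 0.02 for all genes. An unadjusted p under 0.05 with a higher level was found for 6 of the 32, namely Abcc4, Abcc1, Slc15a1, Slc22a23, Slc22a18 and Abcg2, where the share over all genes was 5.97%. For Slc22a13 alone it came with a lower level, where the share over all genes was 6.24%. The 3 phenylbutazone arrays lay wholly above the 3 vehicle arrays for 7 transporters, with 12.1% of all genes doing so, and wholly below them for 2, with 9.39% of all genes doing so. The directions of Slc22a4, Slc22a8, Abcc10 and Slc29a1 turned when arrays were scaled to the median, and those of Slc22a6 and Abcc10 turned under quantile normalization.

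**Figure D1:**
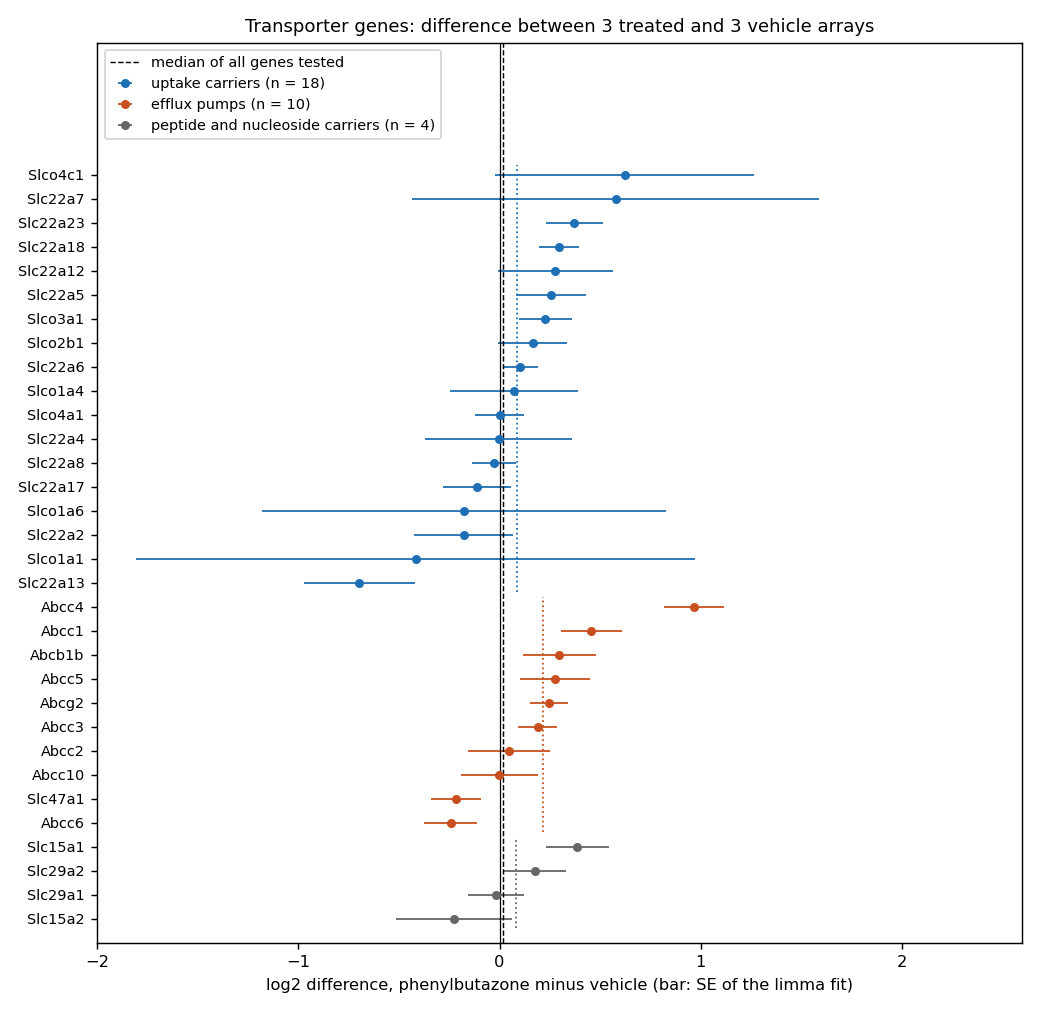
Log2 difference, phenylbutazone minus vehicle, for the 32 tested transporters (points; bars are the standard error of the limma fit, 3 arrays per group), ordered within uptake carriers, efflux pumps and peptide or nucleoside carriers. Coloured dotted lines mark the median of each class, the black dashed line the median of all 29938 genes at 0.02, and the solid line 0; Abcc4 at 0.97 stands highest and Slc22a13 at -0.70 lowest, and Slco1a1, Slco1a6 and Slc22a7 have the widest bars.

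Organic anion uptake is led by Slc22a6 (OAT1) and Slc22a8 (OAT3), the basolateral carriers that take up many acidic drugs. Slc22a6 had log2 levels of 8.08, 8.13 and 8.12 with vehicle (arrays 1 to 3 in order, here and in the lists of levels that follow) and 8.16, 8.26 and 8.22 with phenylbutazone. The groups did not overlap, yet the whole span over 6 arrays was only 1.13-fold, and the difference of 0.10 ± 0.09 (SE) had an adjusted p of 0.666 (limma). Within slide 2 the difference was 0.10. Its other probe stood the other way, at -0.19 over all arrays and -0.58 within slide 2. Slc22a8 had log2 levels of 7.82, 7.71 and 7.97 with vehicle and 7.88, 7.77 and 7.77 with phenylbutazone. These overlap, with a difference of -0.03 ± 0.11 and a 95% interval from -0.29 to 0.24 (limma), and its other probe gave -0.28. Within slide 2 the probes gave -0.17 and -0.62. For both carriers the 95% interval of the representing probe stayed within 0.32 log2 units of 0.

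Slc22a7 (OAT2), a carrier of organic anions and nucleotides, varied far more than either. It stood at log2 levels of -2.75, -3.13 and -4.31 on the vehicle arrays and at -4.90, -2.69 and -0.87 on the phenylbutazone arrays. Phenylbutazone arrays 1 and 3 held both the lowest and the highest of the 6 levels, 16.3-fold apart, and the difference of 0.58 ± 1.01 had an adjusted p of 0.844 (limma). It was 1.49 within slide 2 and -0.40 without phenylbutazone array 3.

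Organic cations enter through Slc22a2 (OCT2), and Slc22a4 and Slc22a5 carry ergothioneine and carnitine. Slc22a2 had log2 levels of 3.93, 3.91 and 3.26 with vehicle and 3.32, 3.36 and 3.89 with phenylbutazone. One array of each group departs from the other pair, vehicle array 3 being low and phenylbutazone array 3 high, and the difference was -0.18 ± 0.25 with the other probe at 0.11. Both turned within slide 2, to 0.26 and -0.45. Slc22a4, the ergothioneine carrier, differed by -0.0041 ± 0.36, and Slc22a5, which reclaims filtered carnitine, by 0.26 ± 0.17, both with overlapping groups. Within slide 2 they stood at 0.51 and 0.58, and their second probes at -0.81 and -0.70.

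Urate and related anions are exchanged at the brush border by Slc22a12 (URAT1) and Slc22a13 (OAT10). Slc22a12 had log2 levels of 4.06, 4.14 and 4.55 with vehicle and 3.92, 4.74 and 4.91 with phenylbutazone. Phenylbutazone array 1 was the lowest of the 6 and arrays 2 and 3 the highest, giving a difference of 0.28 ± 0.29 and values of 0.20 to 0.28 over its 3 probes. Within slide 2 all 3 probes turned, to values from -0.33 to -0.02. Slc22a13 had log2 levels of -1.70, -2.62 and -2.64 with vehicle and -2.96, -3.23 and -2.88 with phenylbutazone. All 3 phenylbutazone arrays lay below the vehicle arrays, by -0.70 ± 0.28 on average, with an adjusted p of 0.396 (limma). Vehicle array 1 was the highest by far, and the difference was -0.39 without it and -0.38 within slide 2. A second probe of Slc22a13 that passed the filter gave 0.29 with overlapping groups and -0.11 within slide 2, so the direction over all arrays depended on the probe.

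The less characterised members of the family are Slc22a17, a receptor for the iron carrier lipocalin 2, Slc22a18, an imprinted gene related to cation carriers, and Slc22a23, whose substrates are little known. Slc22a18 had log2 levels of 6.56, 6.58 and 6.43 with vehicle and 6.79, 6.91 and 6.75 with phenylbutazone. The groups did not overlap, and the difference was 0.30 ± 0.10 with an adjusted p of 0.353 (limma), or 0.39 within slide 2, where its second probe gave 0.02. Slc22a23 had log2 levels of 4.71, 4.90 and 4.86 with vehicle and 5.43, 5.17 and 4.98 with phenylbutazone. These groups were also apart, by 0.37 ± 0.14 with an adjusted p of 0.386 (limma), and within slide 2 the difference was 0.33. Its second probe gave 0.66 with overlapping groups and -0.63 within slide 2. Slc22a17 differed by -0.11 ± 0.17, and by 0.22 within slide 2.

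The Slco family takes up bile acids, steroid and thyroid hormone conjugates and bulky drugs. None of its 7 members had groups that lay apart or an unadjusted p under 0.05, and 5 were higher with a family median of 0.07. Slco1a1, a carrier of the straight part of the proximal tubule in rats, had log2 levels of 0.75, 0.82 and -2.43 with vehicle and -3.27, -0.14 and 1.30 with phenylbutazone. Vehicle array 3 and phenylbutazone array 1 were far below the rest, the 6 arrays spanned 23.8-fold, and the difference was -0.42 ± 1.39, or 1.72 within slide 2. Its relative Slco1a6 followed the same order at the low end, with -0.59, -0.12 and -2.24 against -3.25, -0.47 and 0.24, an 11.2-fold span and a difference of -0.18 ± 1.00, or 1.08 within slide 2.

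Slco4c1, a basolateral carrier of digoxin and thyroid hormone, had log2 levels of -4.57, -4.51 and -5.62 with vehicle and -5.59, -4.07 and -3.16 with phenylbutazone. The same pair of arrays was lowest, the difference was 0.62 ± 0.64 (1.34 within slide 2), and 1 of the 3 phenylbutazone arrays was not well above background. The other 4 members differed by 0.23 ± 0.13 (Slco3a1, a prostaglandin carrier), 0.17 ± 0.17 (Slco2b1, a carrier of steroid sulphates), 0.07 ± 0.32 (Slco1a4) and 0.0007 ± 0.12 (Slco4a1, a carrier of thyroid hormone). In the same order they stood at 0.02, -0.06, 0.75 and 0.0079 within slide 2. Slco1a1, Slco1a4 and Slco1a6 are closely related, and whether one probe also binds RNA of another was not tested.

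Spread between arrays of the same group was thus a feature of several uptake carriers. Measured by the residual standard deviation within groups, Slco1a1 exceeded 99.73% of all genes tested, Slc22a7 99.31%, Slco1a6 99.28% and Slco4c1 98.0%. Slc22a6 stood at the other end, above only 1.65% of genes. In 7 of the 18 uptake carriers (38.9%) vehicle array 3 and phenylbutazone array 1 were the lowest of the 6, namely in Slc22a2, Slc22a4, Slc22a5, Slc22a7, Slco1a1, Slco1a6 and Slco4c1. This held for 0 of the 10 tested efflux pumps, for 1 of the 4 peptide and nucleoside carriers (Slc15a2) and for 10.3% of all genes tested. The pattern was picked out after the values had been seen, and no test is given for it. It also depended on the probe, since the second probes of Slc22a2, Slc22a4 and Slc22a5 stood below 0 within slide 2 where the representing probes stood above it.

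Proximal tubule markers showed the same pair of low arrays in 6 of 24 (25%), these being Alpl, Ggt1, Mme, Slc3a1, Slc5a1 and Slc7a13. That pair was also lowest in 2 of 6 leukocyte markers (33.3%) and 1 of 5 thick limb markers (20%). So it was in 3 of 16 other carriers of the same families (18.8%), among them the Abc gene Abcc8. In every other list examined the share was 10% or less. Slc7a13, an amino acid carrier of the straight proximal tubule, had log2 levels of 3.90, 4.38 and 1.99 with vehicle and 1.46, 4.37 and 5.41 with phenylbutazone. Its within-group spread exceeded that of 99.51% of genes. The summed level of all 24 markers, to which bright genes add most, was lowest on phenylbutazone array 1 (3095) but not low on vehicle array 3 (3324). With each marker centred on its own mean, the mean over the 24 was lowest on that pair of arrays. It was 0.07, 0.03 and -0.16 with vehicle and -0.25, 0.12 and 0.19 with phenylbutazone. Whether the pieces of cortex held unequal amounts of straight tubule was not tested.

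**Figure D2:**
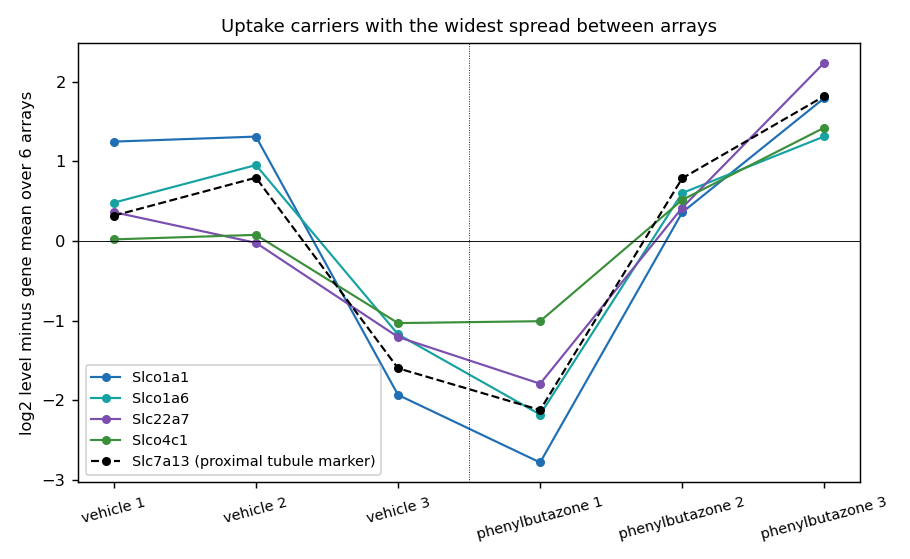
Log2 level of 4 uptake carriers and of the proximal tubule marker Slc7a13 (dashed) on each of the 6 arrays, minus the mean of that gene over the 6 arrays; the dotted vertical line divides vehicle from phenylbutazone. All 5 lines dip on vehicle array 3 and phenylbutazone array 1 and peak on phenylbutazone array 3.

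On the exit side Abcc4 had the largest difference of the 32 tested transporters. The 7 Abcc pumps had a median of 0.19, with 5 higher and 2 lower. Abcc4 (MRP4), a pump of the brush border that exports urate, cyclic nucleotides, prostaglandins and conjugated drugs, had log2 levels of 2.27, 2.19 and 1.84 with vehicle and 3.23, 2.97 and 3.02 with phenylbutazone. Every phenylbutazone array stood above every vehicle array, by at least as much as the whole span of either group. The difference was 0.97 ± 0.15, or 1.96-fold, with a 95% interval from 0.61 to 1.33 and an adjusted p of 0.179 (limma). All 4 probes of Abcc4 agreed in direction, with differences of 0.70 to 0.97, and for each of them the groups lay apart. Within slide 2 the difference was 1.23 for the representing probe and 0.45 to 0.69 for the other 3, since vehicle array 3 was the lowest vehicle array on the former and not on the latter. With the slide as a fixed block, the difference again rested on vehicle array 3 alone, and Abcc4 did not pass the adjusted threshold.

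Only without vehicle array 3 was Abcc4 called, at a difference of 0.84 with an adjusted p of 0.0382 (limma), among 814 genes called (2.72%), Abcc1 being the other transporter. In that subset all vehicle arrays lie on slide 1 and all phenylbutazone arrays on slide 2, so treatment and slide cannot be told apart there. Over all alternatives the difference of Abcc4 ran from 0.81 to 1.23 and its adjusted p from 0.0382 to 0.502.

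The promoter of Abcc4 is shown because it is the transporter whose level differed most, and those of Slco1a1 and Slco1a6 because their levels shared the same low arrays. The promoter of Slc22a8 is set beside them as that of a carrier whose level stayed close between arrays. Each is the RefSeq sequence of assembly GRCr8 from 250 bases before to 50 bases after the annotated start, written 5′ to 3′ on the strand of the gene. Capitals mark matches, on either strand, to the motifs searched. For Abcc4 they are the xenobiotic response element core GCGTG, met in reverse as CACGC, and the STAT element TTCNNNGAA. For Slc22a8 the match is the HNF1 half-site GTTAAT, for Slco1a1 a pair of CCAAT boxes in reverse, and for Slco1a6 one GCGTG and one CCAAT.
Abcc4, chr15:102181315-102181614, minus strand: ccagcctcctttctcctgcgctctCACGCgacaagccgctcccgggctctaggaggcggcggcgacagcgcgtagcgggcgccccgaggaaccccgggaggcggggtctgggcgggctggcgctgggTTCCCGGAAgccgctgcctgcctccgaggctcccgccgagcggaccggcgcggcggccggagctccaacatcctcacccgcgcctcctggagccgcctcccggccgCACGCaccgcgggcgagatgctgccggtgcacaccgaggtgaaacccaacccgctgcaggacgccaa
Slc22a8, chr1:214927034-214927333, plus strand: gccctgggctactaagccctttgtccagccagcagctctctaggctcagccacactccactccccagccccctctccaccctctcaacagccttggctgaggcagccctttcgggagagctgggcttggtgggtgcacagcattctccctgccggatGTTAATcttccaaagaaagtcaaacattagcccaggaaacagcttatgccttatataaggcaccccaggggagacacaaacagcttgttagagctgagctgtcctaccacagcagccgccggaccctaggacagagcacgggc
Slco1a1, chr4:176681943-176682242, minus strand: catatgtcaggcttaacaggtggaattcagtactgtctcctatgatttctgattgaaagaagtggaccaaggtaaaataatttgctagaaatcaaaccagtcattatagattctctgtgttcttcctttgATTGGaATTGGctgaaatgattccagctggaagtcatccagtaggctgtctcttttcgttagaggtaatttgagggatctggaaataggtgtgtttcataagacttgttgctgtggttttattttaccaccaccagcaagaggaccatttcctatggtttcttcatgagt
Slco1a6, chr4:176838983-176839282, minus strand: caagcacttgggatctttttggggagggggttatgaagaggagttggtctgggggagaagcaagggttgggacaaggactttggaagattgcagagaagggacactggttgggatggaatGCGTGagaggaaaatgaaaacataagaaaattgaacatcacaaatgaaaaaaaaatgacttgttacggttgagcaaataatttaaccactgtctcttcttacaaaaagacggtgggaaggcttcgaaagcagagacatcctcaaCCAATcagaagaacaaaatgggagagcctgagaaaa

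The Abcc4 window is 75.3% G and C, against 58% for Slc22a8, 43% for Slco1a6 and 39% for Slco1a1. Counted from the start site, its GCGTG matches begin at -226 and -17 and its STAT element at -123, the GTTAAT of Slc22a8 begins at -93, and the matches of Slco1a1 begin at -120 and -114. A promoter was found for 30 of the 34 transporters, all but Slc22a6, Slc47a1, Abcc3 and Abcc5. GCGTG occurred in 12 of these 30 (40%) and in 29.7% of all 33469 promoters of that length, and the antioxidant response element core TGACNNNGC in 7 (23.3%) and in 12.1%. The latter was present in Abcc2, Abcc10, Slc15a1, Slc22a4, Slc22a23, Slc29a1 and Slco4c1, and these letters are not in the Abcc4 window. GTTAAT occurred in 2 of 30 (6.67% against 7.45%), TTCNNNGAA in 3 (10% against 8.87%) and CCAAT in 15 (50% against 37.5%). Both strands were searched for every motif, and a match describes letters only.

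Abcc1 (MRP1), a basolateral exporter of glutathione conjugates and leukotrienes, had log2 levels of 0.81, 0.74 and 1.21 with vehicle and 1.29, 1.36 and 1.48 with phenylbutazone. Its groups lay apart, by 0.46 ± 0.15 with an adjusted p of 0.350 (limma), but vehicle array 3 stood much nearer to the phenylbutazone arrays than the vehicle arrays of slide 1 did. Within slide 2 the difference was 0.17. The other 3 probes gave 0.19 to 0.41 over all arrays, but on each of them vehicle array 3 was above all 3 phenylbutazone arrays, with differences of -0.50 to -0.18 within slide 2. Without vehicle array 3 the difference was 0.60 with an adjusted p of 0.0474 (limma).

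Abcc2 (MRP2), the brush border pump for glucuronide and glutathione conjugates, had log2 levels of 1.76, 2.14 and 1.71 with vehicle and 2.00, 1.56 and 2.19 with phenylbutazone. These overlap throughout, with a difference of 0.05 ± 0.20, or 0.21 within slide 2. Abcc3, a basolateral pump of glucuronides, differed by 0.19 ± 0.10 with groups apart, and by 0.25 within slide 2. Its other probes gave 0.02 and 0.10 with overlapping groups, and 0.13 and -0.00094 within slide 2. Abcc5, an exporter of cyclic nucleotides, differed by 0.28 ± 0.17 with overlapping groups. For Abcc5 vehicle array 3 was low, and within slide 2 the difference was 0.64. On its second probe vehicle array 3 was not low, and the difference within slide 2 was 0.20. Abcc6, whose activity drives cellular release of ATP, differed by -0.24 ± 0.13, and Abcc10 by -0.0016 ± 0.19, with -0.38 and -0.41 within slide 2.

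Abcb1b, a rodent P-glycoprotein gene, and Abcg2 (BCRP), which also exports urate, are broad drug pumps of the brush border. Abcb1b had log2 levels of -0.84, -1.05 and -1.43 with vehicle and -0.97, -0.63 and -0.83 with phenylbutazone. The groups overlap for this probe, with a difference of 0.30 ± 0.18 and an adjusted p of 0.542 (limma), whereas its other probes gave 0.30 and 0.92 with groups apart. Vehicle array 3 was the lowest on all 3 probes, and within slide 2 they gave 0.51 to 1.48. Whether any of these probes also binds RNA of the related Abcb1a was not tested. Abcg2 had log2 levels of 3.40, 3.46 and 3.42 with vehicle and 3.57, 3.70 and 3.75 with phenylbutazone. Both groups were tight and did not overlap, and the difference of 0.25 ± 0.10 had an adjusted p of 0.393 (limma) and was the same, 0.25, within slide 2. The second probe of Abcg2 gave 0.22, and 0.11 within slide 2.

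Slc47a1 (MATE1), which exchanges organic cations for protons at the brush border, stood the other way. Its log2 levels were 4.20, 4.15 and 4.49 with vehicle and 4.11, 4.08 and 4.004 with phenylbutazone. All 3 phenylbutazone arrays were below the vehicle arrays, by -0.22 ± 0.12 with an adjusted p of 0.518 (limma), and the second probe gave -0.19. Vehicle array 3 was the highest, the difference without it was -0.11, and the difference within slide 2 was -0.43 (-0.51 on the second probe). The carrier that brings cations in, Slc22a2, differed by -0.18 over the same arrays and by 0.26 within slide 2.

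**Figure D3:**
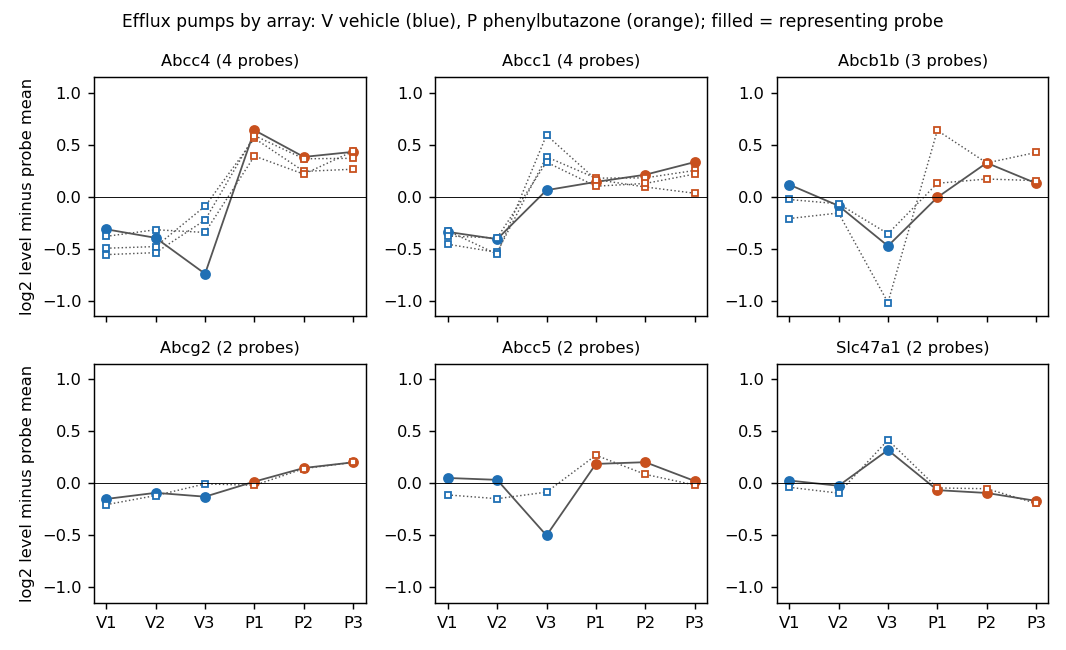
Log2 level on each array minus the mean of that probe over the 6 arrays, for 6 efflux pumps; V1 to V3 are vehicle arrays (blue), P1 to P3 phenylbutazone arrays (orange), filled circles with solid lines the probe that represents the gene and open squares the other probes that passed the filter. All 4 Abcc4 probes step up between the groups, Abcc1 and Slc47a1 are high on V3, Abcb1b is low on V3, and Abcc5 is low there on its representing probe only.

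The peptide carriers Slc15a1 and Slc15a2 reclaim filtered peptides and peptide-like drugs, and Slc29a1 and Slc29a2 exchange nucleosides. Slc15a1 had log2 levels of 2.35, 2.06 and 1.82 with vehicle and 2.55, 2.50 and 2.34 with phenylbutazone. The groups overlap by 1 array, the difference was 0.39 ± 0.16 with an adjusted p of 0.404 (limma), and its other probes gave 0.67 and 0.72 with groups apart. Within slide 2 Slc15a1 stood at 0.64, with its other probes at 0.30 and 0.64, and without vehicle array 3 it stood at 0.26. Slc15a2 differed by -0.23 ± 0.29, Slc29a1 by -0.02 ± 0.14 and Slc29a2 by 0.18 ± 0.15, and within slide 2 all 3 turned, to 0.08, 0.10 and -0.10. Over all 21 transporters with several usable probes, 15 had every probe in one direction and 6 did not, these being Slc22a2, Slc22a4, Slc22a5, Slc22a6, Slc22a13 and Abcc10.

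Uptake and efflux were then set side by side. Efflux pumps were higher with phenylbutazone in 7 of 10 with a median log2 difference of 0.22, and uptake carriers in 11 of 18 with a median of 0.09, beside 0.02 for all genes. Groups lay apart, with the phenylbutazone arrays higher, for 4 of 10 efflux pumps and 3 of 18 uptake carriers, and lower for 1 of each, beside 12.1% of all genes higher and 9.39% lower. The uptake carriers' share lies near that of all genes. The 9 tested Abc pumps alone had a median of 0.25, and the 11 Slc22 carriers one of 0.10.

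Array by array, the median centred level of the efflux pumps was -0.11, -0.06 and -0.14 with vehicle and 0.04, 0.12 and 0.16 with phenylbutazone, so every phenylbutazone array stood above every vehicle array. For the uptake carriers it was 0.02, 0.05 and -0.26 with vehicle and -0.14, 0.18 and 0.18 with phenylbutazone, and the groups overlapped through vehicle array 3 and phenylbutazone array 1. The median of the efflux pumps exceeded that of the uptake carriers by 0.13 over all arrays. Taken array by array, this gap had a standard deviation within groups of 0.13, about as large as the gap itself. Within slide 2 the order turned, with medians of 0.23 for efflux and 0.30 for uptake and a gap of -0.07, and without phenylbutazone array 1 the gap was -0.03.

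With the slide as a fixed block, 5 efflux pumps had an unadjusted p under 0.05, namely Abcc4, Abcc5 and Abcb1b with higher levels and Slc47a1 and Abcc10 with lower ones, and 3 uptake carriers did, Slc22a5, Slc22a18 and Slco1a4, all higher. In that fit 19.5% of all genes were higher and 12.1% lower at that level. No transporter passed the adjusted threshold in it, and its differences set the phenylbutazone arrays against vehicle array 3 alone.

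**Figure D4:**
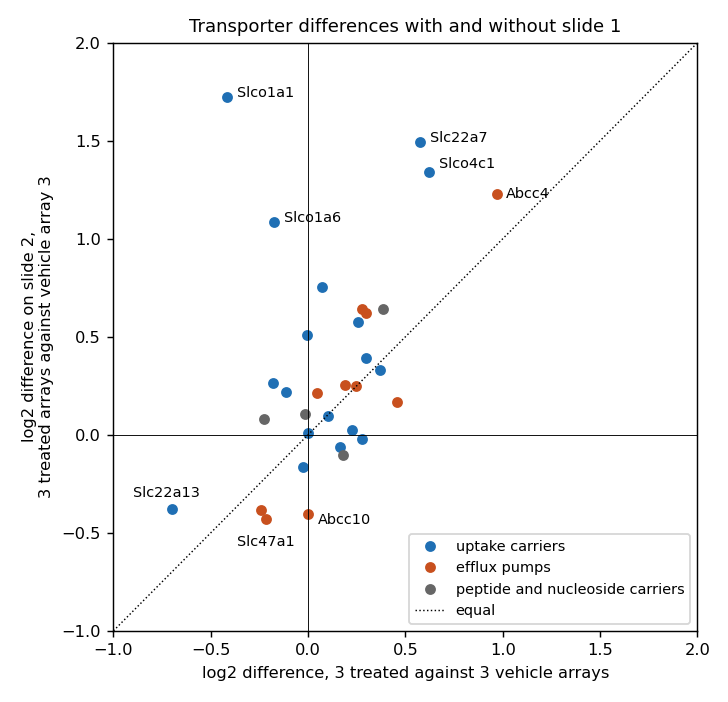
Log2 difference of each of the 32 tested transporters within slide 2 (3 phenylbutazone arrays against vehicle array 3, vertical) against that over all 6 arrays (horizontal); the dotted line marks equal values. Abcc4 is high on both axes, Slc47a1 is below 0 on both, and Slco1a1 and Slco1a6 move from below 0 to above 1.

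Genes that work with these carriers were examined as lists. Of the urate and anion partners, which include the urate carrier Slc2a9 and the sodium-coupled carriers that supply dicarboxylates and lactate, 10 of 11 were tested, 5 were higher and 5 lower, with a median of 0.02. Slc5a12, a lactate carrier that is also among the proximal tubule markers, was higher by 0.36 ± 0.10 (0.38 within slide 2). Slc17a2, a phosphate and anion carrier, was lower at -0.30 ± 0.11 (-0.45 within slide 2). Of the genes that supply driving force or anchor carriers, 8 of 10 were tested with 3 higher and 5 lower and a median of -0.04. Slc4a4, the basolateral sodium bicarbonate cotransporter, was the 1 with an unadjusted p under 0.05, at 0.48 ± 0.10, or 0.41 within slide 2.

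Regulators of transporter genes, the nuclear receptors and hepatic nuclear factors among them, were split evenly, 7 higher and 7 lower of 14, with a median of 0.02. Nr1i3, the constitutive androstane receptor, was higher by 0.60 ± 0.19 (0.51 within slide 2) although 1 vehicle array was not well above background. Targets of NRF2, the factor that answers electrophiles and oxidants, were higher in 11 of 14 tested of 16, beside 52.8% of all genes. Their median was 0.23, beside 0.02 for all genes. The glutathione transferases Gstp1 and Gstm1 stood at 1.16 ± 0.23 and 0.96 ± 0.20, or 1.62 and 0.66 within slide 2. The 3 lower targets were Hmox1 (-0.57 ± 1.11), Ugdh (-0.19 ± 0.10) and Gsr (-0.12 ± 0.10), the last 2 with groups apart. Hmox1 turned to 0.56 within slide 2. For Nqo1, Gclc, Srxn1 and Txnrd1 the groups overlapped. None of these genes passed the adjusted threshold either.

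Markers of other cells and of injury were read on the same arrays. Kidney injury markers were higher in 9 of 12 tested of 13, all 9 with an unadjusted p under 0.05 (5.97% of all genes) and a median over the 12 of 0.58. Their summed level was 60.2 to 61.4 times the 75th percentile on vehicle arrays and 105 to 147 times on phenylbutazone arrays. Bright genes add most to such a sum. The 3 lower injury markers, all with overlapping groups, were Vcam1 (-0.19 ± 0.20), Havcr1 (-0.19 ± 0.47) and Krt8 (-0.08 ± 0.19). Erythrocyte markers were higher in 6 of 6, with a median of 0.47 and sums of 494 to 677 against 579 to 922. Distal tubule and collecting duct markers had a median of 0.14 with sums of 236 to 280 against 260 to 348. Among them Atp6v1g3, a proton pump subunit of intercalated cells, was higher by 0.57 ± 0.17 (0.87 within slide 2). The part of these cells and of injury in the transporter differences was not tested.

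Medians were 0.16 for 5 thick limb markers, -0.19 for 7 endothelial, 0.02 for 6 leukocyte and 0.03 for 6 podocyte markers, each without a member at an unadjusted p under 0.05. The 24 proximal tubule markers had a median of 0.09, equal to that of the uptake carriers at this precision, with 15 higher and 9 lower. Slc5a12 and Slc7a9, a carrier of cystine and basic amino acids, were those with an unadjusted p under 0.05, the latter at 0.23 ± 0.09 (0.22 within slide 2).

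The profile of Abcc4 over the 6 arrays was compared with those of 12154 other named genes. The closest were Eif3j (Pearson r = 0.999), Gpr108 (0.998), Cog4 (0.994), Cdc42bpa (0.994) and Prdx2 (0.992), over 6 arrays that share their slides and scaling. As many as 514 genes had an r above 0.9, none of the 5 is a transporter, and their own differences were 0.11 to 0.34, well below that of Abcc4.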

How the data were processed

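Total RNA of 6 samples was hybridised to one-colour Agilent arrays. Per the file headers and the submitters' processing notes, the authors read images with Agilent Feature Extraction 10.7, which gave the deposited processed intensity (background-subtracted, detrended, not normalized between arrays). The authors' deposited value table holds a ratio, which matched processed intensity over the array's 75th percentile.

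Control spots (1439 of 62976) and 40 probes with outlier flags were left out. Intensities were taken to log2 and centred on each array's 75th percentile. The filter kept probes flagged as well above background on 3 or more arrays. Accessions were matched to RefSeq of GRCr8, naming 28206 of 61537 probes (45.8%). Probes without a match were kept under their own identifier and counted as genes. Of the 29938 genes tested, 12155 had a symbol. The brightest probe represented each gene.

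Differences were fitted with limma 3.58.1 in R 4.3.3 (lmFit, eBayes, two-sided, Benjamini-Hochberg over 29938 genes); ± is the SE. The fit was tested on simulated data, where it recovered 48% of 2-fold and 89% of 4-fold differences, with 11 false calls. The normexp alternative used the median spot and local background intensity deposited by the authors, with an offset of 50. The fit on slide 2 alone lends its lone vehicle array the spread of the phenylbutazone arrays.

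Members and gene lists were chosen with earlier results of these data known. Values on every array were given for members with an unadjusted p under 0.05, a log2 difference of at least 0.5 in size, or among 12 chosen by name; list genes were named at an unadjusted p under 0.05, and the 5 profiles closest to the member of smallest p were named. Some list genes that this rule names are not reported here, and other genes were chosen after their values were seen.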

Additional observations from a re-analysis of the deposited data

How the results depend on the processing

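Of 29938 genes, limma called 1 under quantile normalization, 2 under normexp background correction, 8 with an intensity trend and 1 with the slide as a random block. With single replicates left out it called 0 to 814, the highest without vehicle replicate 3. It called 0 under the other alternatives run. Abcc4 and Abcc1 were called without vehicle replicate 3 (adjusted p of 0.0382 and 0.0474), and no transporter under any other alternative.

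The excess of the efflux over the uptake median turned to -0.066 with the slide as a fixed block and on slide 2 alone, where the lone vehicle array lies low in several uptake carriers. The excess was 0.025 with the slide as a random block, and 0.031 with no filter on dim probes, which adds Abcb1a and Slc47a2. It ran from -0.033 (without phenylbutazone replicate 1) to 0.18 with replicates left out. These transporters turned direction, none of them past the threshold; causes other than those stated were not tested. With the slide as a fixed block and on slide 2 alone, Slc22a2 stood at 0.26, Slc22a4 at 0.51, Slc22a12 at -0.023, Slc22a17 at 0.22, Slco1a1 at 1.72, Slco1a6 at 1.08, Slco2b1 at -0.063, Slc15a2 at 0.081, Slc29a1 at 0.10 and Slc29a2 at -0.10. With the slide as a random block, Slc22a2 stood at 0.10, Slc22a4 at 0.33, Slc22a17 at 0.10, Slco1a1 at 0.95, Slco1a6 at 0.63, Slc29a1 at 0.060 and Slc29a2 at -0.0029.

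Median scaling gave Slc22a8 0.019, Slc22a4 0.043, Abcc10 0.046 and Slc29a1 0.030, and quantile normalization Slc22a6 -0.0026 and Abcc10 0.011. The mean of the probes gave Slc22a6 -0.045, Slc22a4 0.017 and Abcc10 0.095. Normexp correction gave Slco1a4 -0.021, Slco1a6 0.0096 and Slc29a1 0.082, and the deposited ratios gave Slco4a1 -0.00087.

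With single replicates left out, the ranges of those that turned were -0.40 to 1.62 for Slc22a7, -0.090 to 0.041 for Slc22a8, -0.27 to 0.32 for Slc22a4, -0.28 to 0.012 for Slc22a17, -1.49 to 0.87 for Slco1a1, -0.27 to 0.29 for Slco1a4, -0.88 to 0.87 for Slco1a6 and -0.062 to 0.097 for Slco4a1. They were -0.089 to 0.23 for Abcc2, -0.15 to 0.20 for Abcc10, -0.47 to 0.018 for Slc15a2 and -0.12 to 0.094 for Slc29a1.

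The replicate number as a block called 0 genes, with 2695 at an unadjusted p under 0.05 against 3657, and the lowest adjusted p of a transporter was 0.461. Same-numbered arrays deviated with correlations of -0.03, 0.01 and -0.07, within the range of differently numbered arrays, -0.099 to 0.102. The vehicle arrays were split over slides, so these values cannot decide whether the samples were paired. With 3 arrays a group, a difference in a carrier that varies like Slco1a1 could not be seen unless very large. Probes without a RefSeq match could not be assigned to a transporter, but they were kept among all genes tested.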

Other observations

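Other carriers of the same families, 25 in the list and 16 tested, divided evenly between 8 higher and 8 lower with phenylbutazone, with a median log2 difference of 0.0048. The 8 higher and the median include Abcb4, which passed the filter through the phenylbutazone arrays alone. Abcc9, the sulphonylurea receptor of vascular potassium channels, had levels of -0.06, -0.31 and 0.29 with vehicle and 0.30, 0.59 and 0.82 with phenylbutazone. These groups lay apart by 0.60 ± 0.20, and within slide 2 the difference was 0.28.

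The hepatic bile pumps of the family were near background. Abcb11, the bile salt pump, had log2 levels of -4.06, -4.54 and -4.16 with vehicle and -5.88, -6.31 and -4.58 with phenylbutazone, and was well above background on 3 vehicle arrays and 1 phenylbutazone array. Abcb4, the phospholipid exporter, failed to stand well above background with vehicle and did so on all 3 phenylbutazone arrays. Its log2 levels were -5.25, -5.53 and -7.04 with vehicle and -4.91, -5.24 and -4.95 with phenylbutazone. Vehicle array 1 thus nearly equalled phenylbutazone array 2. Abcb4 passed the filter through the phenylbutazone arrays alone, so no fold or test is given. Abcb4 was named after its values were seen.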
